A study of Sus scrofa with 8 samples.

Results

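The 60 genes described here carry the names of cytosolic ribosomal proteins. They are all rows of the deposited table whose symbol starts with RPL or RPS followed by a digit, or is RPLP0, RPLP1, RPLP2 or RPSA, leaving out the RPS6K kinases, and which reached 10 normalized counts in 4 or more of the 8 libraries. All 60 rows with such a name passed that filter, out of 14718 genes in the table and 11660 past the same filter. By their symbols 27 encode proteins of the large subunit and 27 proteins of the small subunit. The other 6 were put in neither set here: RPL3L, RPL7L1, RPL26L1, RPL36AL and RPS27L are named as paralogs, and RPS19BP1 encodes a protein that binds RPS19. Paralogs were set apart by the end of their symbol, not by whether their product sits in a subunit. A further 24 symbols of this form in RefSeq's pig annotation have no row in the deposited table, so neither subunit is complete.

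RNA came from left ventricular tissue of 8 pigs. The mutant group holds 4 gene-edited animals, of which replicates 1 to 3 are labelled with a KCNH2 mutation while the label of replicate 4 reads KCNH3; the design text speaks of KCNH2 mutants throughout. They are set against 4 wild-type (WT) animals. The series models long QT syndrome, a disorder of slowed cardiac repolarization. The labels give neither the edited allele nor the age, sex, litter or collection time. Whether the groups differ in age, sex, litter or collection time is therefore unknown. Such differences cannot be told apart from that of genotype. Every p-value sets the group difference against the spread within the groups of these 8 animals only.

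The cytosolic ribosome joins a small subunit, which decodes the mRNA, to a large subunit, which forms peptide bonds. Its proteins are needed in near-equal numbers, and their mRNAs share a terminal oligopyrimidine (TOP) tract at the 5′ end through which mTORC1 signalling and LARP1 set their translation and stability. In the heart, ribosome content is known for following protein synthesis and growth of the myocyte. RPL3L is a paralog of RPL3 found mainly in striated muscle.

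Libraries held 15.9 to 22.4 M reads in mutant animals and 16.8 to 21.6 M in WT animals. The 13 mitochondrially encoded genes took 27.5%, 19.9%, 16.7% and 15.9% of the reads in mutant replicates 1 to 4 and 33.5%, 31.7%, 87.9% and 65.2% in WT replicates 1 to 4. Reads of nuclear genes therefore numbered 12.7 to 16.2 M in mutant libraries, against 12.9, 11.5, 2.53 and 7.53 M in WT replicates 1 to 4. WT replicates 3 and 4 stand apart on this measure, and log2 differences and list medians that move by over 1.5 times without both are given both ways. KCNH2 had 798, 1762, 1751 and 1839 normalized counts in mutant replicates 1 to 4 and 989, 559, 1909 and 148 in WT replicates 1 to 4, groups that overlap (limma adjusted p = 0.438). KCNH3 had at most 3 reads in a mutant library and 5 in a WT library. Counts per gene carry no information on which allele was edited.

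Both subunits took a smaller part of the nuclear-gene reads in every mutant library than in any WT library. The 54 genes of the 2 subunits together made up 2.92%, 4.45%, 3.65% and 3.48% of nuclear-gene reads in mutant replicates 1 to 4, against 5.15%, 5.30%, 8.20% and 7.29% in WT replicates 1 to 4. The mean share was 3.63% ± 0.632 in mutant libraries and 6.48% ± 1.504 in WT libraries (SD, n = 4 each). Wilson 95% intervals on single shares were at most 0.0338 percentage points to either side and hold for counting error alone, as PCR copies of a molecule were not told apart. In bulk tissue, fewer cells of a type and less RNA per cell cannot be told apart.

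**Figure D1:**
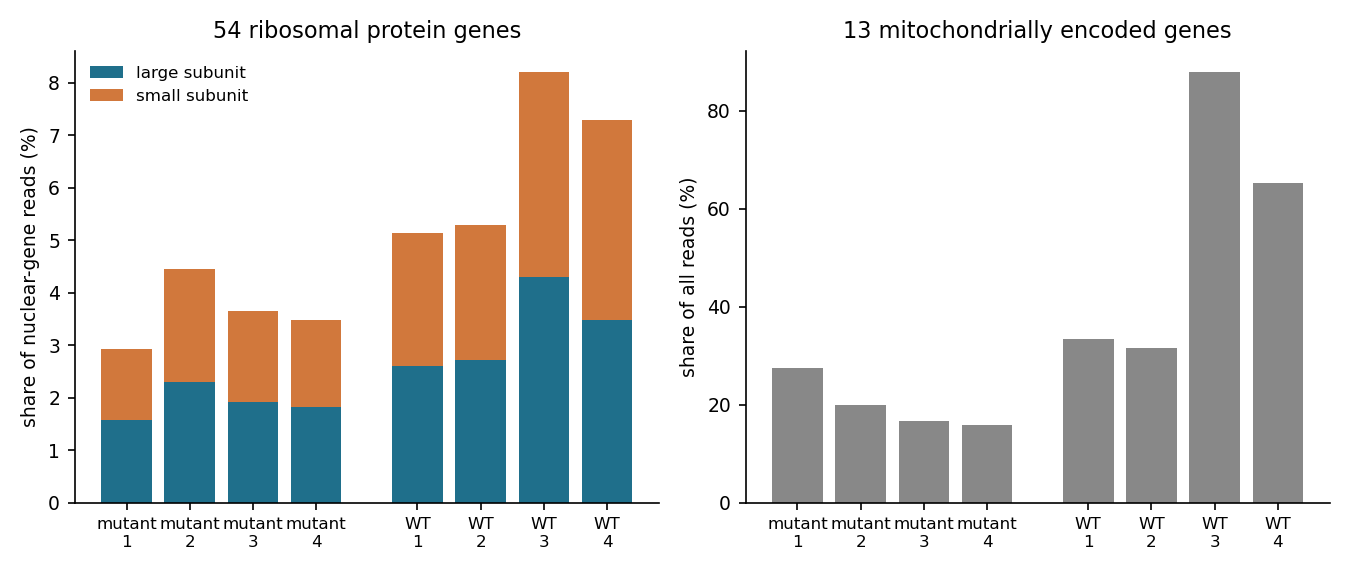
Left, share of nuclear-gene reads (%) taken by 54 ribosomal protein genes in each library, stacked as 27 large (blue) and 27 small (orange) subunit genes; right, share of all reads (%) taken by 13 mitochondrially encoded genes. Mutant libraries are on the left of each panel, and their ribosomal protein shares, 2.92% to 4.45%, all lie below the WT shares, 5.15% to 8.20%.

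The order of the libraries was nearly the same from gene to gene. Mutant replicate 2 was the highest mutant library in 54 of 54 genes, and mutant replicates 2, 3 and 4 stood in that descending order in 50. Mutant replicate 1 was the lowest of all 8 libraries in 40 genes, mutant replicate 4 in 13 and mutant replicate 3 in 1. WT replicate 3 was the highest of all 8 in 46 genes, WT replicate 4 in 7 and WT replicate 1 in 1. Mean centred log2 values over the 54 genes were -0.77, -0.15, -0.41 and -0.51 in mutant replicates 1 to 4 and 0.19, 0.10, 1.04 and 0.51 in WT replicates 1 to 4. The spread within a group was wider among WT animals in 49 of 54 genes, with a median SD of 0.257 in mutant and 0.495 in WT libraries on the log2 scale. Over all genes tested the median SD was 0.332 in mutant and 0.698 in WT libraries.

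**Figure D2:**
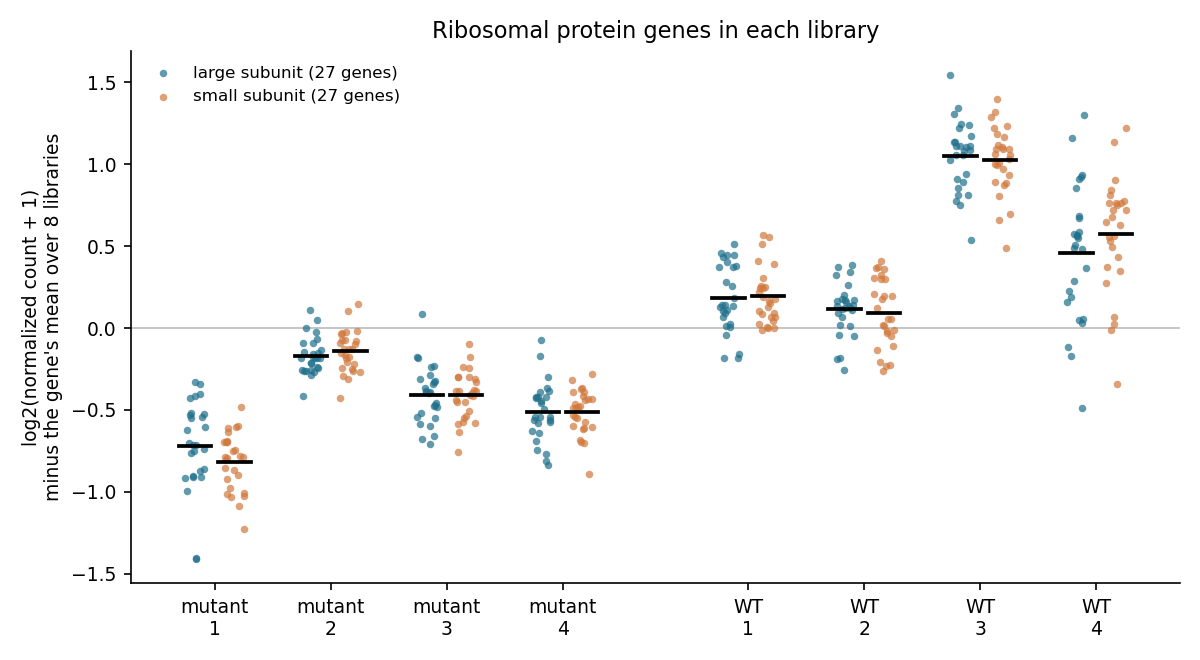
Each point is 1 of 54 ribosomal protein genes in 1 library, as log2(normalized count + 1) minus the gene's mean over the 8 libraries (vertical axis), for large (blue) and small (orange) subunit genes; black bars are the subunit means. The whole cloud shifts between libraries, with mutant replicate 1 lowest (mean -0.77) and WT replicate 3 highest (mean 1.04).

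Across the table, limma on log2(normalized count + 1) called 0 of the 60 genes and 0 of 11660 genes at a Benjamini-Hochberg adjusted p under 0.05, a background of 0%. The smallest adjusted p among the 60 was 0.193, and 50 of them had an unadjusted p under 0.05, all with lower values in mutant libraries, against 6.80% of all genes tested in that direction. The other direction held 7.06% of all genes tested and 0 of the 60. On the recovered reads edgeR called 0 of the 60 (background 0%) and DESeq2 called 27, each lower in mutant libraries (background 3.24% lower and 4.56% in either direction). With array quality weights limma called 0 of the 60 (background 0.532% lower), and without WT replicates 3 and 4 it also called 0 (background 0.0858% lower). The authors' deposited table calls 26 of the 60 lower and none higher, where it calls 3.23% of its tested genes lower, 1.32% higher and 4.54% in either direction.

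All 60 log2 differences were below 0, as were 43.1% of all genes tested. The median difference was -0.93 over the 60 genes and -0.97 over the 54 subunit genes, beside 0.12 over all genes tested. The highest mutant library was under the lowest WT library in 44 of the 60, against 5.22% of all genes tested. After quantile normalization this held for 29 of the 60, against 5.75% of all genes tested. Among 1902 genes with at least 1000 normalized counts in 4 libraries, 7.05% had such separated groups and the median difference was 0.06. Without WT replicates 3 and 4 the median over the 60 genes was -0.61, beside 0.01 over all genes. In that comparison 46 of the 60 had no overlap, against 14% of all genes. All 54 subunit genes still had differences below 0 there, between -0.95 and -0.22.

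**Figure D3:**
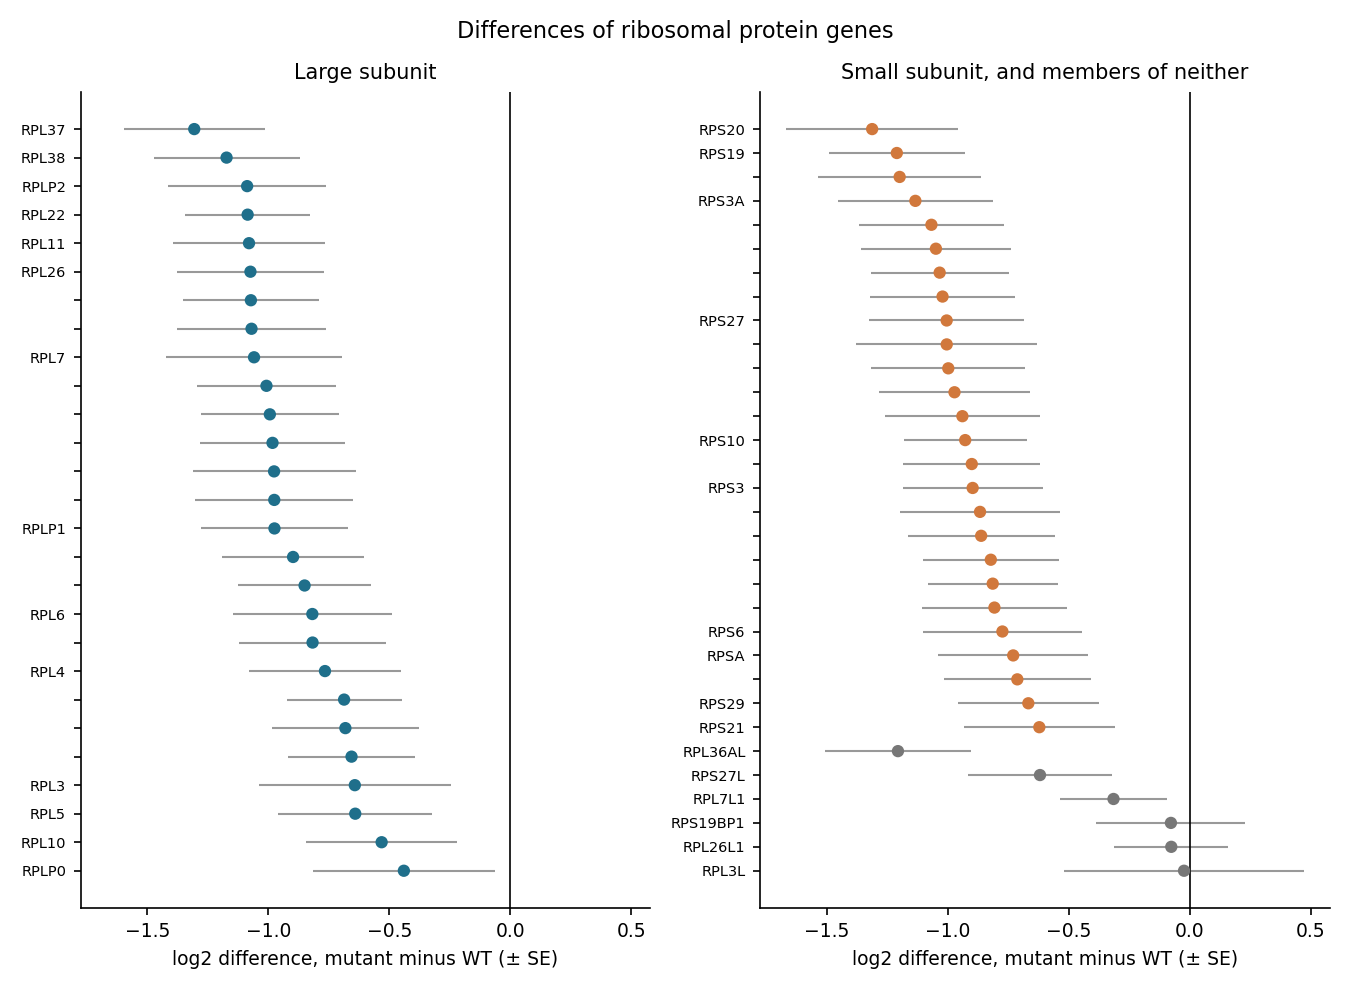
Log2 difference, mutant minus WT, with its standard error from limma, for 27 large subunit genes (left), 26 small subunit genes (right, orange) and 6 genes of neither set (right, grey). Subunit genes run between -1.31 and -0.44, while RPL3L, RPL26L1 and RPS19BP1 sit at the zero line. Points without a name are genes not described singly.

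In the large subunit, differences ran between -1.31 and -0.44 and 22 of 27 genes had groups without overlap, against 5.22% of all genes tested. RPL37, a small zinc-binding protein of this subunit, had 3582, 5961, 4748 and 4187 normalized counts in mutant replicates 1 to 4, against 9448, 8085, 15386 and 13502 in WT replicates 1 to 4. Its highest mutant library was below its lowest WT library, and the log2 difference was -1.31 ± 0.29 (SE; limma adjusted p = 0.193). RPL22, an RNA-binding protein dispensable for translation in mice, had 2206, 3279, 2882 and 2747 normalized counts in mutant replicates 1 to 4. Its WT replicates 1 to 4 had 5180, 4798, 8328 and 5614, again without overlap (difference -1.09 ± 0.26, SE; limma adjusted p = 0.202). RPL38, known for its part in translating Hox mRNAs in mice, differed by -1.17 ± 0.30 (SE), with 1811 ± 321 normalized counts in mutant and 4256 ± 1578 in WT libraries (SD, n = 4 each). Without WT replicates 3 and 4 the RPL38 difference was -0.71. The authors' deposited table calls these 3 genes lower, with adjusted p of 0.00183 for RPL37, 0.00411 for RPL22 and 0.0112 for RPL38. It calls 11 of 27 large subunit genes and 3.23% of all genes it tests lower. The 3 genes were picked by their small limma p in the same libraries, so those calls add no separate support.

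The P-stalk recruits the elongation factors to the large subunit and is built from RPLP0 and dimers of RPLP1 and RPLP2. All 3 had lower means in mutant libraries, and 2 had groups without overlap, against 5.22% of all genes tested. RPLP0 had 15859, 23625, 19471 and 20243 normalized counts in mutant replicates 1 to 4 and 20073, 29745, 51526 and 16249 in WT replicates 1 to 4. These groups overlap, and the difference of -0.44 ± 0.38 (SE) was the one nearest to 0 in either subunit. Without WT replicate 3 it was -0.12, and without WT replicate 4 it was -0.68. RPLP1 had 7429, 11331, 10853 and 9621 normalized counts in mutant replicates 1 to 4 and 15397, 14196, 29765 and 20144 in WT replicates 1 to 4, without overlap. RPLP2 had 2516, 6335, 5453 and 4967 in mutant replicates 1 to 4 and 9475, 7490, 11646 and 10655 in WT replicates 1 to 4, also without overlap. Their differences were -0.97 ± 0.30 (SE) for RPLP1 and -1.09 ± 0.33 (SE) for RPLP2, and RPLP1 was at -0.61 without WT replicates 3 and 4.

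RPL3 and RPL4 shape the peptidyl transferase centre and the exit tunnel, and RPL10 is added late in maturation of the subunit. RPL4 had 12458, 15478, 13978 and 13423 normalized counts in mutant replicates 1 to 4, against 19838, 19758, 41929 and 18400 in WT replicates 1 to 4. The groups did not overlap (difference -0.77 ± 0.31, SE), and without WT replicate 3 the difference was -0.49. RPL10 had overlapping groups, with 14628 to 18387 normalized counts in mutant and 16522 to 38189 in WT libraries. Its difference was -0.53 ± 0.31 (SE), -0.27 with WT replicate 3 left out and -0.25 with WT replicates 3 and 4 both left out. RPL6 overlapped as well, with 10988, 13878, 10125 and 9950 normalized counts in mutant replicates 1 to 4 and 16293, 19149, 34876 and 13640 in WT replicates 1 to 4 (difference -0.82 ± 0.33, SE, and -0.54 without WT replicate 3). RPL5 and RPL11 bind 5S rRNA and, when free, the p53 ligase MDM2; both were chosen for description after their values were seen. RPL11 differed by -1.08 ± 0.31 (SE) without overlap and RPL5 by -0.64 ± 0.32 (SE) with overlapping groups, and that difference between the pair was not tested. RPL5 was at -0.37 with WT replicate 3 left out. With WT replicates 3 and 4 left out, RPL5 was at -0.30 and RPL11 at -0.66.

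In the small subunit, differences ran between -1.31 and -0.62 and 21 of 27 genes had groups without overlap, against 5.22% of all genes tested. RPS19, a protein of pre-rRNA processing whose mutation causes Diamond-Blackfan anaemia in humans, had 5477, 9244, 7415 and 6650 normalized counts in mutant replicates 1 to 4. Its WT replicates 1 to 4 had 13302, 13272, 21505 and 18891, so that the highest mutant library lay below the lowest WT library (difference -1.21 ± 0.28, SE; limma adjusted p = 0.197). RPS20, a protein of the subunit's head, had 5805, 7639, 5547 and 5045 in mutant replicates 1 to 4 and 9808, 9712, 22794 and 21785 in WT replicates 1 to 4. WT replicates 3 and 4 were above both other WT libraries here, and the difference was -1.31 ± 0.36 (SE) with all libraries and -0.72 without those 2. RPS10, which sits at the mRNA entry side, had 5888 ± 881 normalized counts in mutant and 11307 ± 2542 in WT libraries (SD, n = 4 each), without overlap (difference -0.93 ± 0.25, SE). The authors' deposited table calls all 3 lower, among 14 of 27 small subunit genes and 3.23% of all genes it tests. These 3 were picked by their small limma p in the same libraries, so those calls add no separate support.

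RPS3 and RPS3A lie near the mRNA channel, and RPS6 is the substrate of the S6 kinases downstream of mTORC1. RPS3 had 9051, 15271, 11703 and 10451 normalized counts in mutant replicates 1 to 4 and 15406, 19509, 27217 and 24901 in WT replicates 1 to 4. The highest mutant library was only just below the lowest WT library, and the difference was -0.90 ± 0.29 (SE). RPS3A averaged 10019 ± 689 normalized counts in mutant and 23447 ± 10068 in WT libraries (SD, n = 4 each). Its groups did not overlap, and the difference was -1.13 ± 0.32 (SE), or -0.66 without WT replicates 3 and 4. RPS6 had 8407, 13293, 10807 and 9678 in mutant replicates 1 to 4 and 20022, 16737, 27851 and 10732 in WT replicates 1 to 4. Its groups overlapped through WT replicate 4 (difference -0.77 ± 0.33, SE, and -1.02 without WT replicate 4).

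RPSA, known also as a laminin receptor precursor, had 5776, 8108, 7930 and 7530 normalized counts in mutant replicates 1 to 4, against 9269 to 21006 in WT libraries. The groups did not overlap (difference -0.73 ± 0.31, SE), and the difference was -0.46 with WT replicate 3 left out and -0.48 with WT replicates 3 and 4 both left out. The small subunit genes nearest to 0 were RPS29 and RPS21. RPS29 had 1780, 4010, 3213 and 2988 normalized counts in mutant replicates 1 to 4 and 5182, 3585, 5087 and 4620 in WT replicates 1 to 4. RPS21 had 1392, 2705, 2356 and 1921 in mutant replicates 1 to 4 and 2599, 2159, 3977 and 4286 in WT replicates 1 to 4. Both overlapped, and without mutant replicate 1 the differences were -0.44 for RPS29 and also -0.44 for RPS21. Without WT replicates 3 and 4 RPS21 was at -0.22.

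The subunits were lower by nearly the same amount. The median log2 difference was -0.98 over the large subunit genes and -0.94 over the small subunit genes, a gap of -0.04 that changed sign with the libraries used and was 0.05 without WT replicate 3. With WT replicates 3 and 4 left out the medians were -0.62 for the large and -0.60 for the small subunit. Large minus small subunit means of centred log2 values were 0.10, -0.03, 0.00 and 0.00 in mutant replicates 1 to 4 and -0.01, 0.02, 0.03 and -0.12 in WT replicates 1 to 4. They averaged 0.02 ± 0.06 in mutant and -0.02 ± 0.07 in WT libraries (SD, n = 4 each), and the groups overlapped. Mutant replicate 1 and WT replicate 4 were the 2 libraries in which the subunits came apart, in opposite directions. Large subunit genes took 54.1%, 51.7%, 52.3% and 52.5% of the reads of both subunits in mutant replicates 1 to 4. In WT replicates 1 to 4 they took 50.7%, 51.3%, 52.5% and 47.8%, again overlapping. The authors' deposited table calls 11 of 27 large and 14 of 27 small subunit genes lower, against 3.23% of the genes it tests.

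To compare proportions within the set, each gene's log2 value was taken relative to the mean of the 54 genes in the same library. On that relative scale 42 of 54 genes differed by less than 0.25 between the groups, and the range was -0.39 for RPS20 to 0.48 for RPLP0. All mutant libraries were under all WT libraries for 3 genes, RPL37, RPL22 and RPS19, against 0.317% of all genes tested on the same scale. All mutant libraries were over all WT libraries for 1 gene, RPL10, against 34.8% of all genes tested. Because the mean of the 54 genes was itself lower in mutant libraries, this scale raises all other genes there. The shares over all genes are therefore no measure of what to expect among the 54. In relative log2 units RPL10 had 0.44, 0.15, 0.10 and 0.09 in mutant replicates 1 to 4 and -0.34, 0.02, 0.02 and -0.47 in WT replicates 1 to 4.

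Single libraries also departed from the common shift. WT replicate 3 was above the mean of WT replicates 1 and 2 in all 54 genes, by 0.24 to 1.46 on the log2 scale. WT replicate 4 was less even, from -0.77 for RPS6 to 1.34 for RPL36, with 11 genes below that mean. Those 11 were RPL4, RPL6, RPL10A, RPL24, RPL28, RPL29, RPLP0, RPS4X, RPS6, RPS13 and RPSA. Mutant replicate 1 differed from the mean of mutant replicates 2 to 4 by -1.45 for RPL3 and by 0.15 for RPL7, the extremes of the set.

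RPL3 and its muscle paralog RPL3L stood at opposite ends of their ranges in mutant replicate 1. RPL3 had 3823 normalized counts in that library and 10960, 10778 and 9661 in mutant replicates 2 to 4, against 10955, 8933, 17823 and 14852 in WT replicates 1 to 4. RPL3L had 2035 in mutant replicate 1 and 579, 534 and 489 in mutant replicates 2 to 4, against 710, 644, 499 and 1443 in WT replicates 1 to 4. Mutant replicate 1 thus had the lowest RPL3 and the highest RPL3L of all 8 libraries. RPL3L made up 34.7%, 5.02%, 4.72% and 4.81% of the normalized counts of the pair in mutant replicates 1 to 4 and 6.08%, 6.73%, 2.72% and 8.85% in WT replicates 1 to 4. The mean was 12.3% ± 14.9 in mutant and 6.10% ± 2.54 in WT libraries (SD, n = 4 each), with overlap. RPL3 differed by -0.64 ± 0.40 (SE), or -0.28 without mutant replicate 1 and also -0.28 without WT replicates 3 and 4. RPL3L differed by -0.02 ± 0.50 (SE), or -0.51 without mutant replicate 1 and 0.14 without WT replicates 3 and 4.

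**Figure D4:**
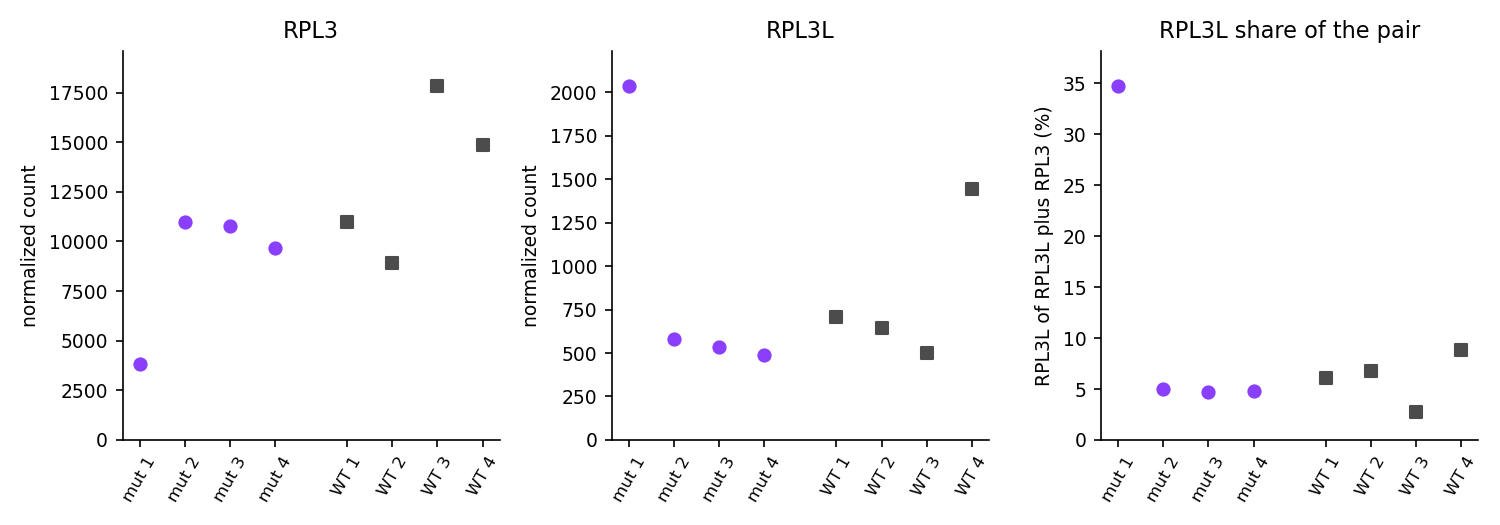
Normalized counts of RPL3 (left) and RPL3L (middle), and RPL3L as a percentage of the pair (right), in each library, with mutant libraries as purple circles and WT libraries as dark squares. Mutant replicate 1 has an RPL3L share of 34.7%, and the other 7 libraries lie between 2.72% and 8.85%.

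Differences of the other paralogs ran between -1.21 and -0.08. RPL36AL, whose product is nearly identical to that of RPL36A, had 1037, 1092, 970 and 904 normalized counts in mutant replicates 1 to 4 and 1491, 1791, 3595 and 2941 in WT replicates 1 to 4. It was the only 1 of these 6 genes without overlap, against 5.22% of all genes tested. Its difference was -1.21 ± 0.30 (SE), or -0.71 without WT replicates 3 and 4. RPS27L, a target of p53 in human cells, differed by -0.62 ± 0.30 (SE), beside -1.005 ± 0.32 (SE) for RPS27; the difference between such pairs was not tested. RPS27L was at -0.38 with WT replicate 3 left out. With WT replicates 3 and 4 left out, RPS27L was at -0.39 and RPS27 at -0.50. RPL26L1 had 291, 311, 335 and 277 normalized counts in mutant replicates 1 to 4 and 391, 266, 373 and 268 in WT replicates 1 to 4, groups that overlap (difference -0.08 ± 0.24, SE). RPL26 itself differed by -1.07 ± 0.30 (SE) without overlap, or -0.70 without WT replicates 3 and 4. RPL26L1 therefore made up 5.96% ± 0.891 of its pair in mutant and 3.20% ± 1.19 in WT libraries (SD, n = 4 each). This was the only 1 of 4 pairs whose groups did not overlap, and only just. The lowest mutant share was 5.00%, in replicate 2, and the highest WT share 4.85%, in replicate 1. RPL7L1, a nucleolar protein of ribosome assembly, differed by -0.32 ± 0.22 (SE), or -0.19 without mutant replicate 2. RPL7 differed by -1.06 ± 0.36 (SE), or -0.63 without WT replicates 3 and 4. RPS19BP1 had 164, 276, 309 and 289 normalized counts in mutant replicates 1 to 4 and 393, 261, 237 and 206 in WT replicates 1 to 4. Its groups overlap (difference -0.08 ± 0.31, SE, and -0.34 without WT replicates 3 and 4).

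Genes of the ribosome with other names were FAU and RACK1. FAU encodes RPS30 fused to a ubiquitin-like domain, and RACK1 is a scaffold on the small subunit. FAU had 857, 1861, 1548 and 1449 normalized counts in mutant replicates 1 to 4, against 2555, 2768, 3822 and 3291 in WT replicates 1 to 4. Its groups did not overlap, and those of RACK1 did. The differences were -1.16 ± 0.28 (SE) for FAU and -0.45 ± 0.27 (SE) for RACK1, which was at -0.28 without WT replicate 3.

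Beyond the ribosome, the 12 tested of 17 listed genes with TOP mRNAs, mainly translation factors, had differences between -0.995 and -0.25. Their median was -0.71, -0.46 with WT replicate 3 left out and -0.28 with WT replicates 3 and 4 both left out. The initiation factor gene EIF3F differed by -0.82 ± 0.25 (SE) and NAP1L1, a histone chaperone, by -0.91 ± 0.34 (SE), or -0.46 without WT replicates 3 and 4, both with overlap. The elongation factor gene EEF1D differed by -0.75 ± 0.24 (SE) and was the 1 of the 12 without overlap, against 5.22% of all genes tested. Among ribosome biogenesis factors 58 of 67 tested genes had a difference below 0, with a median of -0.36. The box C/D ribonucleoprotein gene NOP56 had 431, 629, 731 and 644 normalized counts in mutant replicates 1 to 4 and 1005, 2058, 2267 and 1961 in WT replicates 1 to 4 (difference -1.54 ± 0.30, SE). PPAN, a factor of large subunit assembly, differed by -1.45 ± 0.37 (SE), and NOP10, of the box H/ACA ribonucleoprotein, by -0.83 ± 0.22 (SE). The 15 genes of the RNA polymerase I machinery, which transcribes the large rRNA precursor, had a median of -0.39 with 12 below 0. That median was -0.26 with WT replicate 3 left out and -0.23 with WT replicates 3 and 4 both left out. POLR1D, a subunit shared with RNA polymerase III, differed by -1.14 ± 0.25 (SE). TAF1D, of the promoter selectivity factor, differed by -1.45 ± 0.37 (SE), or -0.87 without WT replicates 3 and 4, and POLR1G by -1.004 ± 0.30 (SE). None of these genes passed limma over all genes.

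Regulators of TOP mRNAs went both ways, with 7 of 21 above 0 and 14 below, and a median of -0.28. The median was -0.15 without mutant replicate 1, -0.16 with WT replicate 3 left out and -0.04 with WT replicates 3 and 4 both left out. MTOR, the kinase of mTORC1, had 1087, 1259, 1336 and 1430 normalized counts in mutant replicates 1 to 4, against 742, 801, 484 and 536 in WT replicates 1 to 4. All mutant libraries were over all WT libraries, as in 6.17% of all genes tested, and the difference was 1.02 ± 0.23 (SE; limma adjusted p = 0.197). The translational repressor EIF4EBP2 differed by 0.78 ± 0.26 (SE) and DDIT4, an inhibitor of mTORC1, by -0.96 ± 0.34 (SE), both with overlap. Among the S6 kinases left out by the name rule, RPS6KB2 differed by -0.81 ± 0.30 (SE) without overlap, and RPS6KB1 by -0.51 ± 0.26 (SE) and RPS6KA3 by -0.37 ± 0.23 (SE) with overlap. Without WT replicates 3 and 4 RPS6KB1 was at -0.30 and RPS6KA3 at -0.12, and RPS6KA3 was at -0.20 without WT replicate 3 alone. Of 11 genes of the p53 checkpoint, which free ribosomal proteins can engage through MDM2, 7 were above 0 and 4 below. CDKN1A, the p21 inhibitor of the cell cycle, differed by -1.13 ± 0.32 (SE), MDM2 by 0.70 ± 0.31 (SE) and the stress gene GADD45A by -0.70 ± 0.35 (SE). The 68 mitochondrial ribosomal protein genes, which build the separate ribosome of that organelle, had a median of 0.14, close to the 0.12 of all genes, with 45 above 0 and 23 below. Their median was 0.28 without WT replicate 1, 0.06 with WT replicate 4 left out and -0.04 with WT replicates 3 and 4 both left out. Their 3 genes with the smallest p were MRPL47 at 1.47 ± 0.52 (SE), MRPL11 at 0.72 ± 0.26 (SE) and MRPL20 at -0.88 ± 0.32 (SE). Without WT replicates 3 and 4 MRPL47 was at 0.61 and MRPL11 at 0.45.

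**Figure D5:**
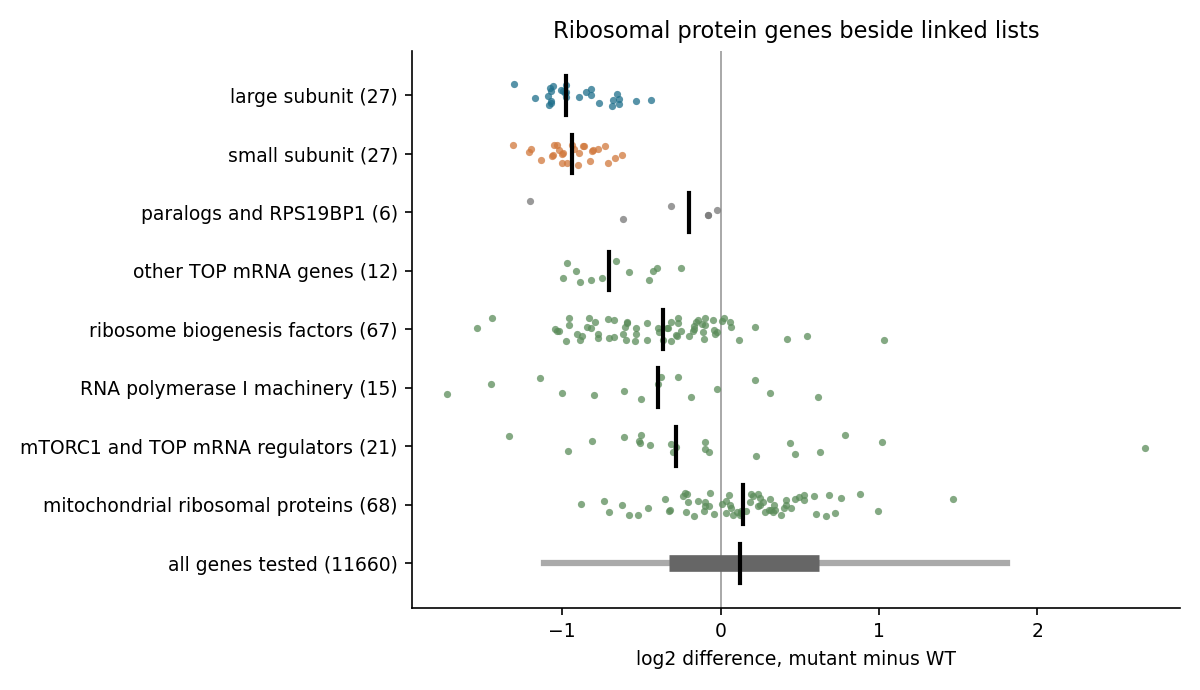
Log2 difference, mutant minus WT, of each gene (points) in the 2 subunit sets, the 6 genes of neither set and 5 linked lists. Numbers of genes are in brackets and black lines mark the medians. For all genes tested, the thick bar spans 25% to 75% and the thin bar 5% to 95% of genes. The subunit medians, -0.98 and -0.94, lie left of the all-gene median, 0.12, and mitochondrial ribosomal proteins, 0.14, do not.

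Other measures moved with these groups. All 13 mitochondrially encoded genes had a log2 difference below 0, with a median of -2.50. Groups did not overlap in 7 of the 13, against 5.22% of all genes tested. The 3 with the smallest p were ATP8 at -5.90 ± 0.78 (SE), ND1 at -3.44 ± 0.62 (SE) and ND2 at -3.36 ± 0.88 (SE). The median was -1.65 with WT replicate 3 left out and -0.98 with WT replicates 3 and 4 both left out. Without both, 12 of the 13 were below 0, with ND2 at -1.92 and ATP8 further from 0 at -7.37. The mitochondrially encoded share of reads was higher in every WT library than in any mutant library, and WT replicates 3 and 4 had both the highest shares and the highest ribosomal protein means. Within the mutant group, replicates 2, 3 and 4 stood in that descending order on both measures. Replicate 1 departed from it, with the highest mitochondrial share and the lowest ribosomal protein mean of the group. The summed level of 8 cardiomyocyte markers of 10 listed was 729812 to 784493 normalized counts in mutant libraries. It was 468628 to 651115 in WT libraries, without overlap. Of the 8 markers, 6 had a log2 difference above 0 and 2 below, with a median of 0.35. None of the 8 was at 0 in any library. Sums of the 6 erythroid markers in the table were 2545 to 3048 in mutant libraries and 18107, 31889, 29159 and 53.4 in WT replicates 1 to 4, and HBM, AHSP and SLC4A1 were at 0 in at least 1 library. Summed fibroblast, endothelial, smooth muscle, macrophage, neutrophil and lymphocyte markers overlapped between the groups. By gene, all 8 endothelial markers (median 0.29) and all 7 tested macrophage markers (median 0.97) had differences above 0. All 6 erythroid markers were below 0 (median -0.97), as were 43.1% of all genes tested. Fibroblast markers had 6 above and 2 below 0, smooth muscle markers 5 and 3, and neutrophil markers 2 and 2. Lymphocyte markers did not pass the filter. The part of these measures in the ribosomal protein differences was not tested.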

How the data were processed

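Poly(A)-selected RNA was sequenced from left ventricular tissue of 8 pigs, per the labels' protocols. The authors deposited 1 table with 14720 rows. Its 8 library columns hold a signal that the authors made by dividing a gene's read count by 1 size factor per library (normalized count); 100% of values were whole multiples of 1 read within a tolerance of 1e-06. The authors also deposited a log2 fold change with its standard error, a Wald score and p-values. DESeq2, without a version, and build GRCh38 come from the submitters' processing notes. That build is the human genome although the samples are pig, and whether reads were aligned to it is not stated, so how reads were assigned to each gene is uncertain; aligner, counter and annotation: not given in the sources used here. No coordinates or sequences were used. The 2 rows naming no gene (0.392% to 0.853% of reads) were left out. All 60 member symbols matched pig gene symbols in the reference tables.

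Genes with at least 10 normalized counts in at least 4 libraries were fitted with limma 3.58.1 (R 4.3.3, trended robust prior) on log2(normalized count + 1), and p-values were adjusted over all genes. Alternatives were DESeq2 1.42.0 and edgeR 4.0.16 on recovered reads, other scalings, pseudocounts of 0.5 and 5, other filters, array weights and left-out libraries; the filter of 1000 was chosen after seeing the data. The scripts were tested on simulated data. Each member of both subunits had at least 821 reads in every library. Ribosomal protein genes have near-identical copies, and counting by strand is not stated, so reads may be shared between copies or with antisense genes.

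Members, lists and the rule for named genes were chosen with earlier results of these data known. Values are given for the 4 highest means, 3 smallest p and 2 lowest and 2 highest differences of each subunit, the P-stalk genes, RPSA, paralogs with their parents, RPS19BP1, and the 3 smallest p of each linked list; 1 member and 1 linked gene under this rule are not reported here.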

Additional observations from a re-analysis of the deposited data

Results flagged for a closer look

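A Dixon test at the 95% level in groups of 4 libraries picked out 6 of 84 sets of values, and chance alone picks out about 1 in 20. Mutant replicate 1 stood above the other mutant libraries in RPL3L, at 2035 normalized counts, and in the RPL3L share of the RPL3 pair, at 34.7%. WT replicate 3 stood above the other WT libraries in 4 genes, with 38189 normalized counts of RPL10, 41929 of RPL4, 38151 of RPL7 and 21006 of RPSA.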

How the results depend on the processing

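The median difference of the 60 genes kept its direction in every alternative run, from -1.07 to -0.61, the second of these with WT replicates 3 and 4 left out together, and leaving out 1 library at a time gave -1.07 to -0.72. Without the 6 genes outside both subunit sets it was -0.97. The number of all genes called was 0, but 582 with DESeq2, 92 with array quality weights, 12 without WT replicates 3 and 4, 3 after quantile normalization and 2 with the filter of 1000; leaving out 1 library gave 0 to 3. DESeq2 called 27 of the 60 genes, and the other alternatives, edgeR among them, called 0. The large minus small subunit gap was -0.058 to 0.052 with 1 library left out. Genes of the 60 without overlap numbered 29 after quantile normalization, against 44 without it, beside 5.75% and 5.22% of all genes tested. Scaling to nuclear-gene reads shifted the median of all genes to 0.21 and left that of the 60 at -0.85. Signs turned for 3 genes near 0. RPL3L was at 0.14 with DESeq2 and with edgeR, 0.014 with TMM, 0.060 with nuclear scaling and 0.14 without WT replicates 3 and 4, and -0.51 to 0.29 with 1 library left out. RPL26L1 was at 0.0071 and RPS19BP1 at 0.0055 with nuclear scaling, and with 1 library left out they spanned -0.164 to 0.0201 and -0.20 to 0.13. The causes were not tested. No paired analysis was possible because the labels number the pigs separately. Depth limits WT replicate 3 most, where 1 read was worth 4.84 normalized counts.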
